A study of Mus musculus with 4 samples.

Results

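Slc12a2, Tnfrsf11b, Lgmn, Rgs10, Clca3a1, Pcdh17 and Tubb2b are 7 of the 20063 gene symbols measured by single-cell RNA-seq in whole lungs of 4 mice. They were chosen for higher counts in lung endothelial cells (ECs) of libraries labelled ERG CKO than of libraries labelled WT, or for leading an EC cluster that is mostly ERG CKO. Their EC levels in the 2 groups, and their ranks, levels and shares in that cluster, are therefore the basis of their selection and are given as a description, without a test. WT mice carried ERG fl/fl alleles and no Cre, and ERG CKO mice carried the same floxed alleles with CDH5-CreER(T), a tamoxifen-inducible Cre recombinase driven by the promoter of the endothelial cadherin gene Cdh5. Both groups, 2 mice each, received 5 daily injections of 0.5 mg tamoxifen, and lungs were taken 90 days later, so tamoxifen was common to all libraries and the Cre was not. Each library is 1 mouse, ages are not given in the labels, and the Cre marks endothelium in general and not lung ECs alone.

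The matrix held 2264 and 2150 cells in WT replicates 1 and 2 and 3097 and 1852 cells in ERG CKO replicates 1 and 2, with 11263911 to 18646776 UMIs per library (each UMI is a barcode that stands for 1 RNA molecule). Median depth was 4611 to 4899 UMIs per cell, and 7 barcodes were shared between libraries. Of the 9363 cells, 2519 were named ECs (585, 704, 735 and 495 in WT replicates 1 and 2 and ERG CKO replicates 1 and 2). The summed level of the 10 endothelial markers in ECs was 20404.8 and 21429.5 CPM (UMIs scaled to a library total of 1e+06) in WT. It was lower in both ERG CKO libraries, at 16064.5 and 17268.5 CPM. In NK cells it was 121 to 332 CPM. Erg itself was detected in ECs at 84.6 and 87.2 CPM in WT and at 105 and 81.9 CPM in ERG CKO. The groups overlapped. Counts per gene do not read which exons are missing, so they do not check the labels, and every direction below is between libraries as labelled.

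ERG is a transcription factor of the ETS family that is made by ECs and is known for keeping endothelial identity and vascular stability. Lung capillaries hold general capillary cells (gCap ECs), which act as progenitors in repair, and aerocytes (aCap ECs), large thin cells specialised for gas exchange. ETS factors bind DNA at a GGAA core, TTCC on the other strand.

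Positions are given on mm10. Slc12a2 encodes NKCC1, the importer of sodium, potassium and chloride. Tnfrsf11b, which encodes osteoprotegerin, the secreted decoy receptor for RANKL and TRAIL, is at chr15:54250619-54278484 (minus strand). Lgmn, the lysosomal asparaginyl protease legumain, is at chr12:102394084-102439813 (minus). Rgs10, a GTPase-activating protein that ends signalling by G protein alpha subunits, is at chr7:128373621-128418758 (minus). Clca3a1, a member of the calcium-activated chloride channel regulator family known as a lymphatic endothelial marker, is at chr3:144729677-144760977 (minus). Pcdh17, a protocadherin, is at chr14:84443563-84539002 (plus), and Tubb2b, a beta-tubulin, at chr13:34126748-34130466 (minus). In GENCODE vM21, Rgs10 overlaps Gm15503 on its own strand, and Clca3a1 and Pcdh17 overlap Gm34866 and 9630013A20Rik on the other strand, so reads in those overlaps could be assigned to either gene.

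Since ERG binds the ETS core, the 250 bases before the RefSeq start (GRCm38.p6, the assembly called mm10) were searched for GGAA or TTCC, overlaps included. The RefSeq table matched 4 of the 7 genes. They are printed 5′ to 3′ in the direction of transcription, with GGAA and TTCC in capitals, at chr3:144760978-144761227 (minus) for Clca3a1, chr12:102439729-102439978 (minus) for Lgmn, chr7:128418173-128418422 (minus) for Rgs10 and chr14:84443313-84443562 (plus) for Pcdh17.
Clca3a1: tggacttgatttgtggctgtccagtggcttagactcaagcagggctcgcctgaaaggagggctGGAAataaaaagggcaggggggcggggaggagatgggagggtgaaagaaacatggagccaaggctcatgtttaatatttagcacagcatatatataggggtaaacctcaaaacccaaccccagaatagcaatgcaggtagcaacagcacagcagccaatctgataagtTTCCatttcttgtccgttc
Lgmn: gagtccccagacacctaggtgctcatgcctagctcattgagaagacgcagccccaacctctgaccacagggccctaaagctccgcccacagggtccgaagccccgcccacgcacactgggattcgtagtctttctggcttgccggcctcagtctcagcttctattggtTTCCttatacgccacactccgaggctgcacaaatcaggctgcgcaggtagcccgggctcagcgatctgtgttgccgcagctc
Rgs10: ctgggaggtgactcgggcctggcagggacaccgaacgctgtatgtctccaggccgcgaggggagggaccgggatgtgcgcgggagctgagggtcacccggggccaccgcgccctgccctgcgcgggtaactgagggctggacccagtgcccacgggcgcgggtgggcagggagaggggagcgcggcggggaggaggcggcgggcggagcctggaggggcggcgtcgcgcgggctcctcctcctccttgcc
Pcdh17: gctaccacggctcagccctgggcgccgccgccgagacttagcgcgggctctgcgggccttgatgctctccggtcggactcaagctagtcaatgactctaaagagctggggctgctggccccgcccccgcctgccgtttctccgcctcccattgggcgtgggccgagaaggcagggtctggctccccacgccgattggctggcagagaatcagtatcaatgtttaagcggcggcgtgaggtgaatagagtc
The core was found 2 times before Clca3a1, 1 time before this start of Lgmn (4 times before its other start, at chr12:102439093-102439342) and 0 times before Rgs10 and Pcdh17.  Over all 32851 windows of this length, 93.4% held the core, with a median of 3 matches. The windows of Rgs10 and Pcdh17 were rich in G and C (76.4% and 64.8% of bases, against a mean of 53.2% over all windows). A match of letters is a description of the window and not a binding site.

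In ECs as a whole, 6 of the 7 genes stood several-fold higher in ERG CKO, and Pcdh17 by less. Slc12a2 was detected at 25.3 and 16.4 CPM in WT and at 306 and 486 CPM in ERG CKO, from 70, 53, 1412 and 1298 UMIs. The log2 fold change was 4.21 (SE 0.28), or 18.5-fold. Both ERG CKO libraries lay far above both WT libraries. Tnfrsf11b was low in WT ECs, at 7.23 and 5.26 CPM, and reached 46.4 and 69.6 CPM in ERG CKO (log2 fold change 3.16, SE 0.28). Clca3a1 was at 11.9 and 8.66 CPM in WT and at 87.5 and 56.9 CPM in ERG CKO (2.80, SE 0.28), with ERG CKO replicate 1 the higher of the pair, unlike Slc12a2 and Tnfrsf11b, for which ERG CKO replicate 2 was the higher. Lgmn was at 62.2 and 62.5 CPM in WT and at 233 and 334 CPM in ERG CKO (2.14, SE 0.18). Tubb2b stood at 40.1 and 31.9 CPM in WT and at 105.5 and 143 CPM in ERG CKO (1.74, SE 0.19). Rgs10 was at 21.0 and 19.8 CPM in WT and at 54.2 and 53.9 CPM in ERG CKO (1.37, SE 0.15). Pcdh17 was already abundant in WT ECs, at 347 and 345 CPM, and stood at 479 and 512 CPM in ERG CKO (0.48, SE 0.13). For each of the 7 genes the lower ERG CKO library lay above the higher WT library. That held for 27.1% of the 10791 genes tested in ECs, and 3.18% of them were called between the groups (adjusted p of at most 0.05, edgeR). Both shares are background only, since the genes were selected on this contrast.

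**Figure D1:**
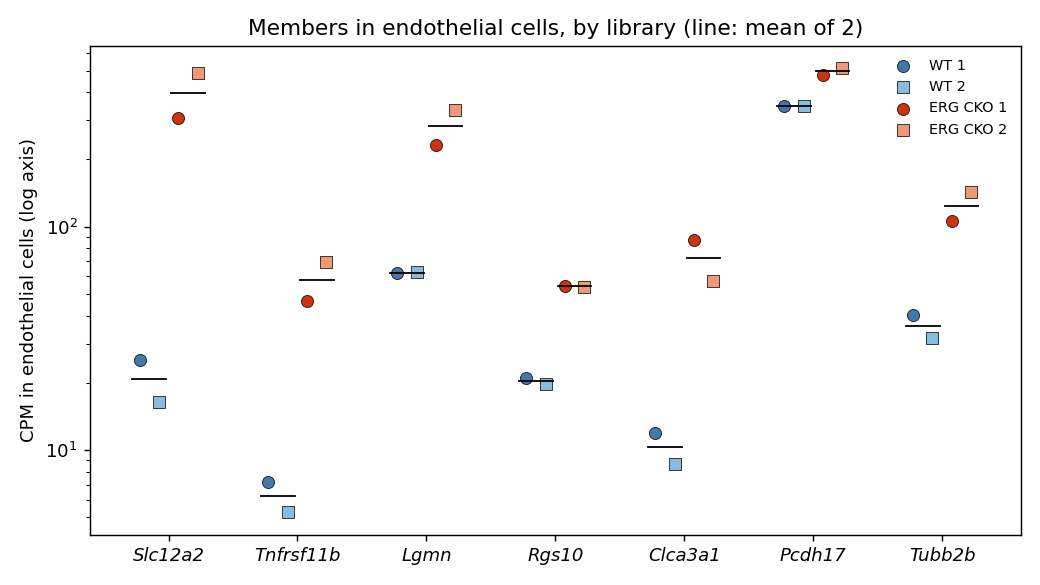
Level of the 7 genes in ECs, in CPM on a log axis, for WT replicates 1 and 2 (blue) and ERG CKO replicates 1 and 2 (red); each point is 1 mouse and each line the mean of 2. In every gene both red points lie above both blue points, by the most for Slc12a2 (means of 20.8 and 396 CPM) and by the least for Pcdh17 (346 and 496 CPM).

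The higher counts came from many cells. The highest single EC held 41 of the 1298 Slc12a2 UMIs of ERG CKO replicate 2 and 34 of the 1412 of replicate 1. For shares at equal depth, 1000 UMIs were drawn from every cell, and the 3 to 9 ECs per library with fewer were not used. At this depth WT ECs held a Slc12a2 UMI in 1.37% and 1.44% of cells, and ERG CKO ECs in 18.0% and 24.1%. Before thinning the shares were 9.40% (95% Wilson interval 7.29 to 12.04) and 6.11% (4.57 to 8.13) against 39.5% (36.0 to 43.0) and 46.5% (42.1 to 50.9), at median depths of 4226, 4006.5, 5488 and 4659 UMIs. Intervals cover counting error only. In NK cells, which served as background, 0% to 3.85% of thinned cells held a Slc12a2 UMI (median depths of 4389 to 4691 UMIs before thinning), the highest being 3 of 78 cells, and in B cells 0% to 0.971%. The WT shares in ECs lay within the range of NK cells and above that of B cells, and the ERG CKO shares lay above both. Lgmn was found in 6.70% and 6.75% of thinned WT ECs, against 18.0% and 27.0% for ERG CKO, with at most 1.282% of NK cells and with 6.80% to 7.19% of B cells, close to the share of WT ECs. Tubb2b had shares of 4.47% and 3.45% for WT, near the highest share of NK cells (3.70%), and of 10.5% and 11.7% for ERG CKO. For Clca3a1 the shares were 0.515% and 0.862% against 7.02% and 5.14%, for Tnfrsf11b 1.20% and 0.862% against 3.71% and 5.76%, and neither gene had a UMI in any NK cell of the 4 libraries. For Rgs10 the shares were 2.58% and 1.15% against 4.81% and 5.56%, with at most 0.877% of NK cells. For Pcdh17 the thinned shares overlapped, at 28.7% and 30.7% against 29.99% and 34.8%.

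By subtype, all 7 genes stood higher in ERG CKO in both capillary types, and some did in the larger vessels and lymphatic ECs. ECs were clustered again with the 7 genes and all genes called in ECs left out of the clustering, and clusters were named from markers. In 24 of the 35 pairs of gene and named subtype both ERG CKO libraries lay above both WT libraries, 7 of 7 in gCap and in aCap ECs, 5 in veins, 3 in arteries and 2 in lymphatic ECs. Of the 10791 genes tested in ECs, this held for 26.5% in gCap ECs, 25.6% in aCap ECs, 21.0% in veins, 13.8% in arteries and 9.17% in lymphatic ECs. By the share of thinned cells with a UMI it held for 14 of the 35 pairs, and for 12.5% of all pairs of gene and subtype. Since the genes were selected on the same contrast in these cells, nothing is read from the counts. Arteries (11 to 18 cells per library) and lymphatic ECs (3 to 8) hold too few cells to give a level for the lower genes.

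Slc12a2 was highest in aCap ECs of ERG CKO, at 1207 and 1414 CPM against 85.0 and 41.0 CPM in WT. A Slc12a2 UMI was found in 68.3% and 69.8% of thinned ERG CKO aCap ECs and in 4.55% and 5.48% of WT aCap ECs. In gCap ECs it stood at 119 and 218 CPM against 15.5 and 9.25 CPM, and in veins at 41.6 and 149 CPM against 13.01 and 30.6 CPM. In WT, too, the 2 aCap values lay above the 2 gCap values. Tnfrsf11b showed the same order within WT (48.5 and 27.99 CPM in aCap against 1.61 and 0.974 CPM in gCap ECs, the latter from 3 and 2 UMIs), and in ERG CKO it reached 129 and 102 CPM in aCap and 31.9 and 71.5 CPM in gCap ECs. No Tnfrsf11b UMI was found in arterial or lymphatic ECs of the 4 libraries, and veins held 4 UMIs, all in ERG CKO replicate 1. In ERG CKO aCap ECs the thinned share of cells with a Tnfrsf11b UMI was 8.33% and 9.38%, against 9.09% and 6.85% in WT, so the share did not follow the level. Its difference in gCap ECs, with 5 UMIs in the WT pair and 193 in the ERG CKO pair, was found in the share as well (0.442% and 0.191% against 2.90% and 5.56%).

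Lgmn was even across WT capillaries, at 57.3 and 60.9 CPM in gCap and 63.7 and 56.0 CPM in aCap ECs. In ERG CKO it stood at 605 and 652 CPM in aCap ECs and at 147 and 238 CPM in gCap ECs. Arteries overlapped between the groups (181 and 122 CPM in WT, 159.9 and 247 CPM in ERG CKO). Tubb2b had the reverse order in WT, with 49.8 and 41.4 CPM in gCap against 6.07 and 11.2 CPM in aCap ECs. Both types reached like levels in ERG CKO, at 118 and 154 CPM in gCap and 133 and 165 CPM in aCap ECs. Rgs10 stood at 34.7 and 25.3 CPM against 12.3 and 6.33 CPM in gCap ECs and at 108 and 104 CPM against 24.3 and 24.3 CPM in aCap ECs.

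Clca3a1 was ordered differently. Lymphatic ECs held the most in WT (230.0 and 183 CPM, from 6 and 4 UMIs) and in ERG CKO (948 and 514 CPM, from 32 and 6 UMIs). Veins followed, at 52.1 and 39.8 CPM in WT and 213 and 81.8 CPM in ERG CKO, and in these 2 types it was detected in WT already. In gCap ECs it was at 4.28 and 4.87 CPM in WT and 65.8 and 58.8 CPM in ERG CKO, and in aCap ECs at 3.03 and 0 CPM, on 1 UMI in all, against 42.5 and 52.0 CPM. Pcdh17 was higher in WT gCap ECs (397 and 421 CPM) and veins (360.1 and 285 CPM) than in WT aCap ECs (191 and 147 CPM). In ERG CKO it stood at 526 and 634 CPM in gCap, 324 and 315 CPM in aCap ECs and 423 and 439 CPM in veins, and it overlapped in arteries. In lymphatic ECs it was at 115 and 137 CPM in WT, from 3 UMIs in each library, and no UMI was found in ERG CKO, in 8 and 3 cells.

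**Figure D2:**
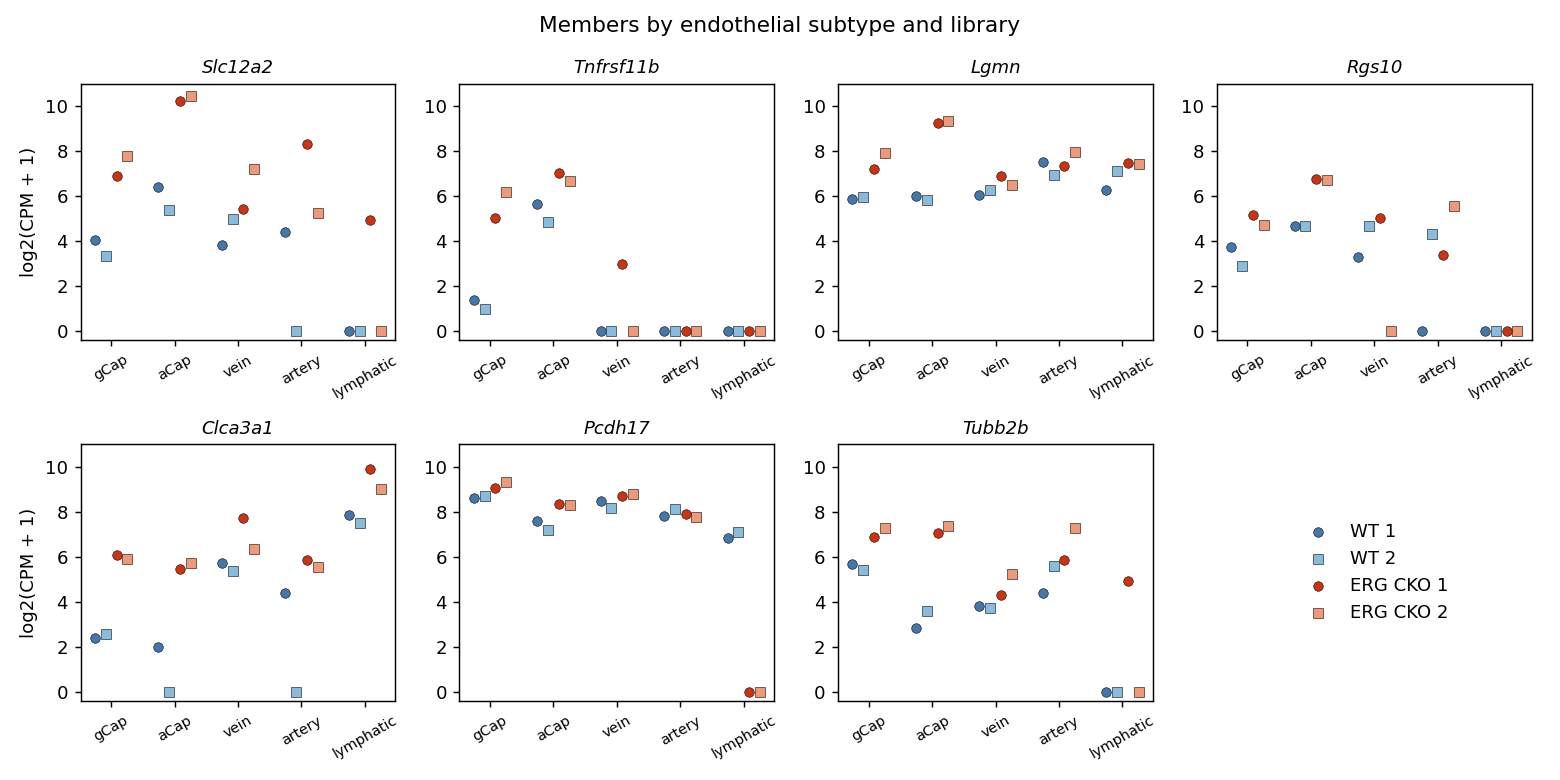
Level of each gene, as log2(CPM + 1), in 5 EC subtypes, with 1 point per library; points at 0 are libraries without a UMI. All 7 genes are apart in gCap and aCap ECs, and Clca3a1 has its top level in lymphatic ECs in all 4 libraries (183 to 948 CPM).

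Without alignment of the libraries, ERG CKO ECs split into cells that had the genes at high levels and cells that were closer to WT. Unaligned cluster 1, for which the 7 genes were likewise left out of the clustering, held 298 of 735 (40.5%, 95% Wilson interval 37.1 to 44.1) and 239 of 495 (48.3%, 43.9 to 52.7) ECs of ERG CKO replicates 1 and 2 and 6 of 585 (1.03%) and 10 of 704 (1.42%) ECs of WT. With libraries weighted equally it was 97.3% ERG CKO, and since it is mostly of 1 group it may be a difference between libraries and not a cell type. It met 6 of 8 aCap markers. In terms of the aligned subtypes, it took 116 of 120 and 91 of 96 aCap ECs of ERG CKO, 151 of 453 and 127 of 332 gCap ECs, and no vein, artery or lymphatic EC. Of the aCap ECs of WT it took 1 of 44 and 3 of 73.

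These values are a basis of the selection and nothing is read from them. Among 6792 genes ordered by log2 fold over all other ECs, Slc12a2 was number 1 in this cluster, Tnfrsf11b number 4, Lgmn number 9 and Tubb2b number 16, whereas Rgs10, Clca3a1 and Pcdh17 were numbers 95, 151 and 280. Cells of the cluster held 87.1% and 89.4% of the Slc12a2 UMIs of ERG CKO ECs (replicates 1 and 2), 92.5% and 90.3% of those of Tnfrsf11b, 79.1% and 83.5% of those of Lgmn and 72.5% and 81.2% of those of Tubb2b. They held 41.6% and 53.8% of the UMIs of all genes. For Clca3a1 the shares were 45.3% and 61.2%, close to those of all genes.

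Inside the cluster Slc12a2 stood at 641 and 807 CPM, and in ERG CKO ECs outside it at 67.5 and 111 CPM, against 25.4 and 16.7 CPM in WT ECs outside it. Tnfrsf11b was at 103 and 117 CPM inside and at 5.93 and 14.6 CPM outside, which overlapped with WT (7.35 and 5.04 CPM). For Lgmn the values were 443 and 518 CPM inside, 83.1 and 119 CPM outside and 62.1 and 63.0 CPM in WT, and for Tubb2b 184 and 215 CPM, 49.7 and 58.3 CPM, and 39.3 and 30.5 CPM. Clca3a1 differed from these, at 95.3 and 64.6 CPM inside and 82.0 and 47.8 CPM outside, both far from the 11.8 and 8.82 CPM of WT. Pcdh17 was at 638 and 595 CPM inside, 365 and 416 CPM outside and 349 and 347 CPM in WT. Rgs10 was at 74.5 and 77.1 CPM inside, 39.7 and 26.7 CPM outside and 20.6 and 18.6 CPM in WT.

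Of all ECs, 7.52% and 10.4% were aCap cells for the WT libraries, against 16.3% and 19.4% for the ERG CKO libraries, and the part of this share in the values over all ECs was not tested. The values within gCap ECs alone are therefore given too. Slc12a2 was at 246 and 386 CPM inside the cluster, 48.5 and 75.1 CPM outside it and 15.8 and 9.37 CPM in WT. For Tubb2b the values were 221 and 266 CPM, 59.7 and 58.7 CPM, and 49.98 and 38.95 CPM, and for Pcdh17 835 and 832 CPM, 353 and 465 CPM, and 398 and 421 CPM, so outside the cluster Pcdh17 overlapped with WT. Lgmn outside the cluster (58.4 and 85.7 CPM) overlapped with WT (57.6 and 60.6 CPM). Clca3a1, at 132 and 92.0 CPM inside, stayed apart from WT outside it (28.6 and 30.5 CPM against 4.35 and 4.93 CPM). Tnfrsf11b was at 82.3 and 139 CPM inside and at 3.73 and 14.1 CPM outside, from 6 and 12 UMIs, against 1.63 and 0.986 CPM in WT, from 3 and 2 UMIs, so that in gCap ECs it was apart from WT outside the cluster, unlike in all ECs. Rgs10 outside the cluster (36.1 and 10.6 CPM) overlapped with WT (11.95 and 6.41 CPM), also unlike in all ECs. In ERG CKO replicate 1 it was lower inside (32.2 CPM) than outside. Counted per cell at 1000 UMIs, ERG CKO ECs of the cluster held a UMI of 1.56 and 1.71 of the 7 genes on average, against 0.473 and 0.587 outside it and 0.455 and 0.455 in WT ECs outside it, and 18.8% and 24.3% of them held 3 or more, against 1.17% and 2.43%.

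**Figure D3:**
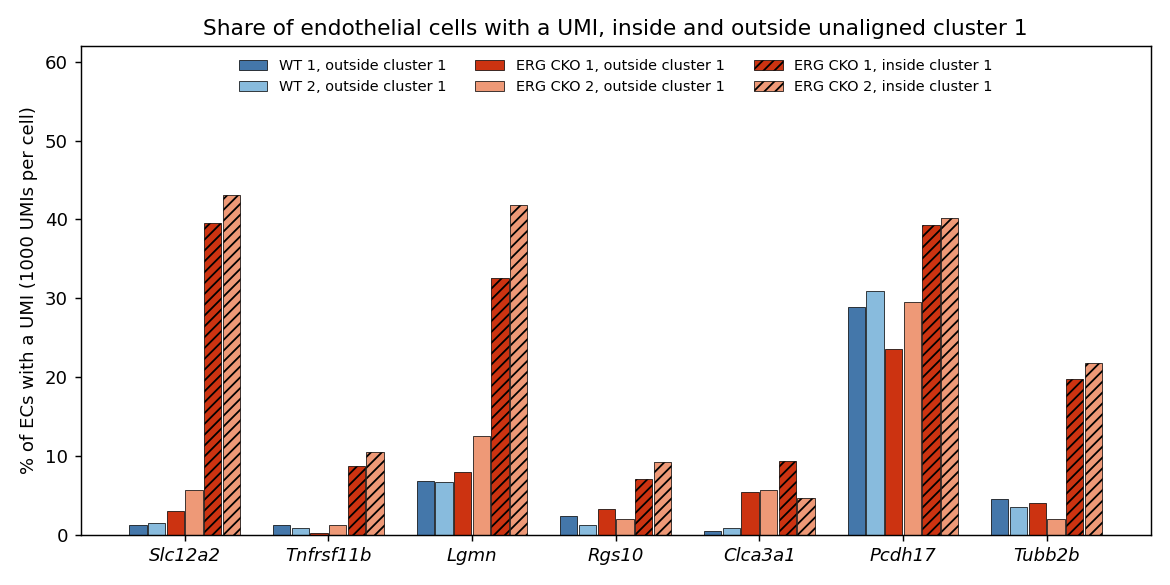
Percent of ECs with a UMI of each gene after every cell was thinned to 1000 UMIs, for WT and ERG CKO cells outside unaligned cluster 1 (plain bars) and ERG CKO cells inside it (hatched). Slc12a2 is at 3.03% and 5.67% outside and 39.6% and 43.1% inside, whereas Clca3a1 is at 5.36% and 5.67% outside and 9.40% and 4.603% inside.

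In thinned ERG CKO ECs the genes were found together in 1 cell more often than the product of their shares gives in 16 of 21 pairs in each library, with median ratios of 1.42 and 1.24. Pairs seen in 5 or more cells of both libraries included Slc12a2 with Tnfrsf11b (ratios of 3.29 and 2.08, 16 and 14 cells), Tnfrsf11b with Lgmn (2.88 and 2.65, 14 and 20 cells), Slc12a2 with Lgmn (2.499 and 1.90, 59 and 60 cells) and Slc12a2 with Rgs10 (2.06 and 2, 13 and 13 cells). For Clca3a1 the ratios were 0.871 and 0.997 with Slc12a2 (8 and 6 cells) and 1.96 and 1.84 with Pcdh17 (30 and 16 cells). Ratios of other gene pairs were not counted as a background. Cells of 1 library share their depth and their mix of subtypes, and these ratios are a description.

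Some of the 7 genes are made at high levels by other cells of the lung, so marker lists of other cell types were summed in ECs. Of 15 lists, 6 had a summed level in ECs that was higher in both ERG CKO libraries than in both WT libraries (erythroid, platelet, B cell, neutrophil, NK cell and fibroblast), 3 were lower and 6 overlapped. Platelet markers (8 genes) were at 63.6 and 125 CPM in WT ECs and at 319 and 181 CPM in ERG CKO ECs, against 19824 CPM in platelets. The 6 erythroid markers, which include haemoglobin genes, were at 36.1 and 53.8 CPM against 1554 and 2227 CPM. In ERG CKO replicate 1 they were mostly outside unaligned cluster 1 (2539 CPM, against 171 CPM inside) and in replicate 2 mostly inside it (4106 CPM, against 35.7 CPM outside). Rgs10 had its highest WT level in platelets, at 1975 and 2784 CPM. With the 1063 ECs left out that held 2 or more UMIs of macrophage, T, NK, B, neutrophil or platelet markers (378 and 455 WT and 336 and 287 ERG CKO ECs remained), Rgs10 was at 9.34 and 5.82 CPM in WT and at 29.5 and 47.2 CPM in ERG CKO, a log2 fold change of 2.28 in place of 1.37. The part of these cells' RNA in the other values was not tested. In the same cells Slc12a2 was at 23.7 and 14.8 CPM against 344 and 574 CPM, Lgmn at 57.9 and 64.5 CPM against 258 and 356 CPM, and Tubb2b at 41.7 and 38.1 CPM against 112 and 113 CPM. Clca3a1 was at 4.36 and 6.35 CPM against 76.4 and 60.4 CPM there, a log2 fold change of 3.60 in place of 2.80. For all 7 genes both ERG CKO libraries lay above both WT libraries there, as did 26.3% of the 10791 genes, and this too is the contrast of the selection.

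The nearest copies were examined next. Tubb2a, a beta-tubulin nearly identical to Tubb2b, was at 369 and 373 CPM in WT and 419 and 475 CPM in ERG CKO ECs (ratio of means 1.20, against 3.45 for Tubb2b), and reads of the pair could be split wrongly between them. Clca3a2 had 1 UMI in WT and 1 in ERG CKO ECs.

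Where the 7 genes are normally expressed was read from the 16 named cell classes of the 2 WT libraries. ECs were the class with the highest level for 1 of them, Pcdh17 (347 and 345 CPM). Mural cells (162 and 127 CPM) and fibroblasts (129 and 93.2 CPM) followed and overlapped. In WT fibroblasts with 0 or 1 UMIs of the endothelial markers Pcdh17 was at 13.2 and 7.62 CPM, from 2 and 1 UMIs. In those with 2 or more it was at 154 and 134 CPM. The endothelial markers summed to 9587 and 6407 CPM in WT mural cells. The part of endothelial RNA in these levels was not tested. Slc12a2 was highest in non-classical monocytes (246 and 304 CPM), then in epithelial cells (225 and 135 CPM) and mural cells (83.6 and 57.2 CPM), and ECs were number 6, not separated from its neighbours in the order, classical monocytes and interstitial macrophages. Its mean level in ERG CKO ECs, 396 CPM, lay above that of every class in WT. Lgmn was highest in interstitial macrophages (857.5 and 1173 CPM, 13 and 7 cells), the cells in which this protease is best known, and non-classical monocytes came next (221 and 177 CPM). ECs were number 9 for Lgmn in WT, and in ERG CKO, at 283 CPM, they passed all classes but interstitial macrophages.

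Rgs10 was led by platelets, interstitial macrophages (502 and 898 CPM), dendritic cells (345 and 378 CPM) and classical monocytes (197 and 297 CPM), the last of which were not separated from T cells (246 and 245 CPM). Tubb2b was highest in platelets (62.5 and 161 CPM, from 22 UMIs), followed by ECs and B cells (25.1 and 22.0 CPM). Tnfrsf11b was low throughout, with mural cells (21.8 and 16.3 CPM, from 16 UMIs) above ECs and at most 1 UMI in any other class. Clca3a1 was led by platelets (12.5 and 56.8 CPM, from 7 UMIs), whose endothelial marker level was 11639 and 8124 CPM, with ECs second and no UMI in 12 of the 16 classes.

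**Figure D4:**
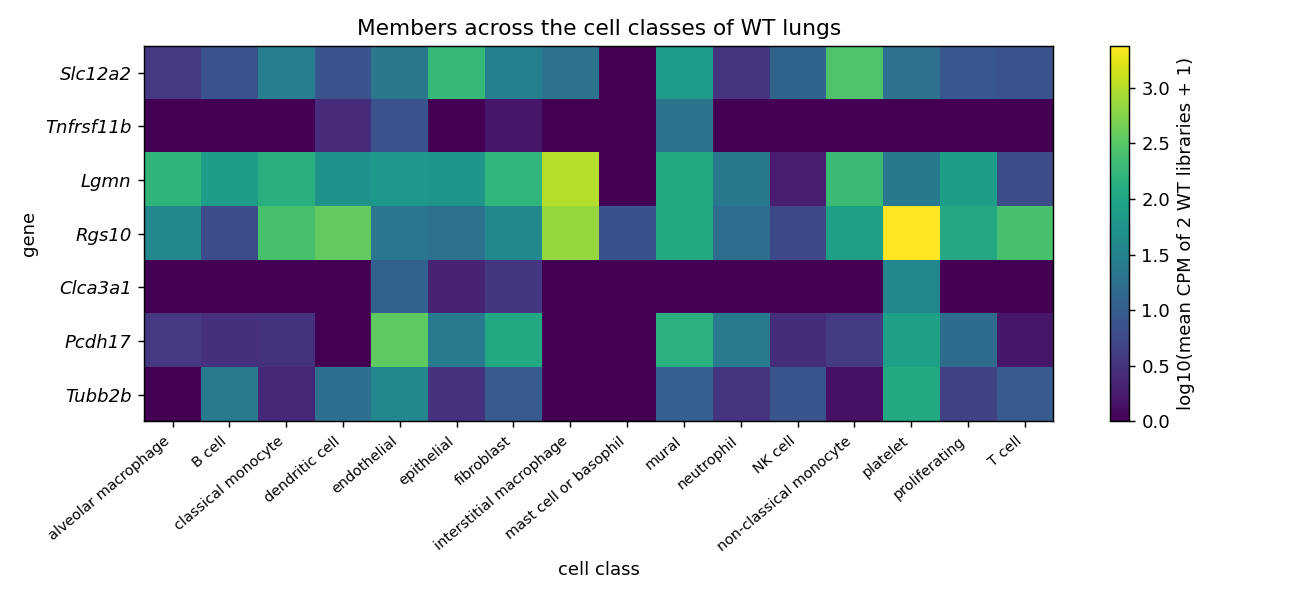
Mean level of each gene in 16 cell classes of the 2 WT lungs, as log10(CPM + 1). Pcdh17 peaks in ECs (346 CPM), Rgs10 in platelets (2380 CPM), Lgmn in interstitial macrophages (1015 CPM), Slc12a2 in non-classical monocytes (275 CPM) and Tnfrsf11b in mural cells (19.1 CPM).

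Likeness was measured by Pearson's r of log2(CPM + 10) over the same 16 classes in WT, among 10903 genes. The 3 genes most like Pcdh17 were Tbx3 (0.99), Ackr3 (0.99) and Aplnr (0.99). For Lgmn they were Tmem86a (0.85), Ctsb (0.85), a lysosomal protease, and Acp2 (0.84), and for Rgs10 they were Pf4 (0.79), P2ry12 (0.78) and Tnnt1 (0.73), of which Pf4 and P2ry12 are platelet genes. Slc12a2 was most like Azin2 (0.89), Tcea3 (0.80) and Zfyve9 (0.79), Tubb2b most like Zfp366 (0.88), Mest (0.87) and Tcf23 (0.85), Clca3a1 most like Tcf23 (0.98), Fam57b (0.96) and Layn (0.96), and Tnfrsf11b most like Afap1l2 (0.98), Igf2 (0.95) and D730045B01Rik (0.94). Classes of a library share its depth and its free RNA, and profiles of low genes such as Clca3a1 and Tnfrsf11b rest on few UMIs.

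Outside ECs the genes were not used to select themselves, so their difference between the groups was tested in the 10 other classes with at least 20 cells in each library. Of 70 pairs of gene and class, 28 passed the filter on low counts and 3 were called, all higher and all in fibroblasts, where 0.876% of 7873 genes were called. Clca3a1 was at 2.37 and 2.45 CPM in WT and at 30.6 and 39.3 CPM in ERG CKO fibroblasts (edgeR log2 fold change of 3.67 with SE 0.63, adjusted p = 0.00821). Slc12a2 was at 30.8 and 24.5 CPM against 124 and 73.6 CPM (1.92, SE 0.33, adjusted p = 0.00821), and Tnfrsf11b at 1.18 and 0 CPM against 17.1 and 24.5 CPM (4.27, SE 0.91, adjusted p = 0.0349), on 1 UMI in WT. Clca3a1 (3 UMIs in WT) and Tnfrsf11b passed the filter on low counts only through ERG CKO, so they could only be called higher. Nothing is read from the direction of these calls. The 3 differences were larger than the spread between mice, but depended on the settings. DESeq2 called 0 of the 28, thinning gave 0, and without alignment Slc12a2 was the only one of the 3 called in fibroblasts. A gene that failed the filter on low counts in a setting was not tested there, and it too is counted as not called. In fibroblasts, Clca3a1 and Tnfrsf11b were tested in 10 of 12 alternatives and Slc12a2 in 11. With cells over 10% mitochondrial UMIs left out, Tnfrsf11b was not called. Without ERG CKO replicate 1 none of the 3 was called, without WT replicate 1 only Slc12a2 was, and without WT replicate 2 Tnfrsf11b was not.

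Endothelial RNA was abundant in the fibroblast class. The 10 endothelial markers summed to 5949 and 6997 CPM in WT and 6881 and 6704 CPM in ERG CKO fibroblasts, all 10 were found in each library, and 52.0% to 66.9% of fibroblasts held 2 or more of their UMIs. The marker level overlapped between the groups. Of the 34 and 8 Clca3a1 UMIs of ERG CKO fibroblasts, 33 and 7 lay in such cells, and of the Tnfrsf11b UMIs 19 of 19 and 5 of 5. For Slc12a2 it was 135 of 138 and 13 of 15. Single cells held much of these counts. The top fibroblast of ERG CKO replicates 1 and 2 held 11 and 4 Tnfrsf11b UMIs, 7 and 6 Clca3a1 UMIs and 37 and 6 Slc12a2 UMIs. Without these fibroblasts, 48 and 36 cells of WT stayed, with 78 and 10 of ERG CKO, and Slc12a2 was at 26.4 and 22.9 CPM against 17.2 and 112 CPM, the last from 2 UMIs, and none of the 3 genes passed the filter on low counts. The part of endothelial RNA in the 3 calls was not tested.

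In the other 9 classes 0.128% of tests over all genes were called and 0 of the 22 tests of these genes. Over the 28 tests, 14 had an unadjusted p under 0.05, 13 of them with the higher level in ERG CKO. Over all genes in the same 8 classes, 6.24% of tests had one. Pairs low in WT, such as Clca3a1 and Tnfrsf11b in fibroblasts, passed the filter on low counts only through ERG CKO. Such pairs could only come out higher, so nothing is read from these counts. Lgmn in dendritic cells was at 58.6 and 48.9 CPM in WT and 125 and 109 CPM in ERG CKO (edgeR log2 fold change of 1.15 with SE 0.27, adjusted p = 0.108, called with no filter on low counts and without alignment), and in alveolar macrophages at 158 and 166 CPM against 209.6 and 195 CPM (0.33, SE 0.12, adjusted p = 0.881). In non-classical monocytes, the class that leads in WT, Slc12a2 was at 246 and 304 CPM against 318 and 319 CPM (0.15, SE 0.16, adjusted p = 0.992). Rgs10 was not called in T cells (246 and 245 CPM against 255 and 191 CPM, adjusted p = 0.9999) or platelets (1975 and 2784 CPM against 1496 and 2212 CPM, adjusted p = 0.9997). A level that misses the threshold with 2 mice per group is not shown to be the same.

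**Figure D5:**
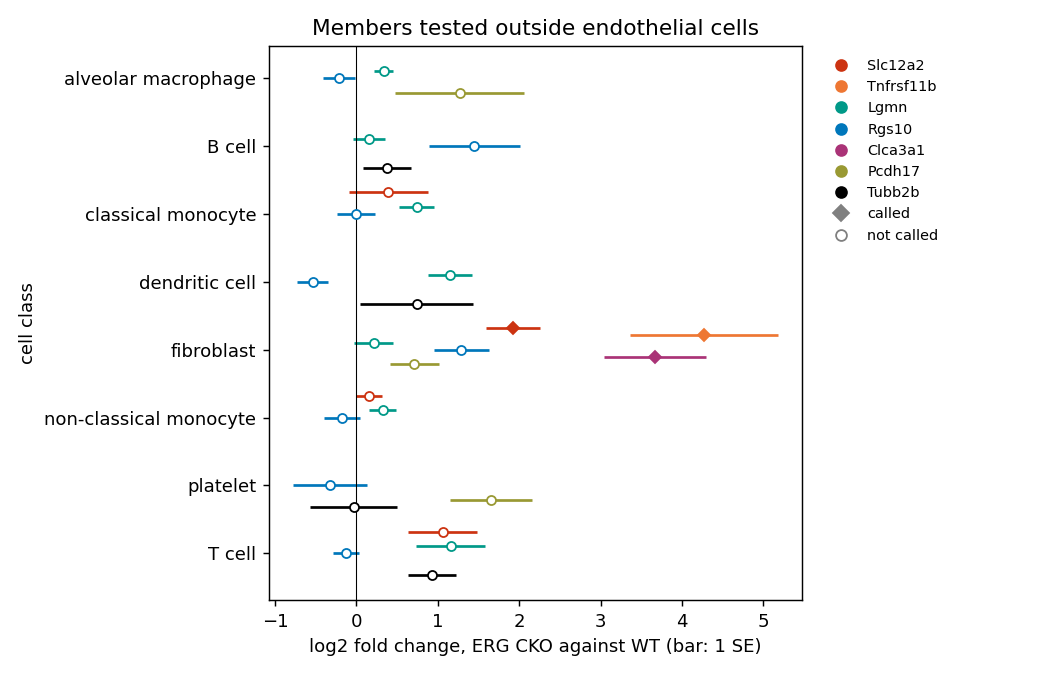
Log2 fold change of the 28 tested pairs of gene and class outside ECs (x axis, ERG CKO against WT, bars of 1 SE); filled diamonds were called. The 3 called pairs are in fibroblasts, at 1.92 (Slc12a2), 3.67 (Clca3a1) and 4.27 (Tnfrsf11b).

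Relatives and partners of the 7 genes were not part of the selection and were tested in ECs. The 7 lists named 104 genes, 99 of them in the matrix. Of the 65 tested, 1 was called, with 3.18% of all genes called. An unadjusted p under 0.05 was found for 16 (24.6%) and for 16.2% of the whole table, and the median log2 fold change was 0.04 over the 65 and 0.01 over all genes.

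Among SLC12 cotransporters and the kinases that regulate them, 0 of 9 tested genes were called (2 at an unadjusted p under 0.05, 1 of them higher). Wnk1, a kinase upstream of NKCC1, was at 219 and 184 CPM in WT and 265 and 211 CPM in ERG CKO (log2 fold change 0.20, SE 0.16), and Cab39, which activates the kinases below it, at 83.8 and 87.9 CPM against 89.5 and 103 CPM (0.12, SE 0.13). Of the RANKL and TRAIL axis, 0 of 8 were called (1, lower, at an unadjusted p under 0.05). The death receptor Fas was at 326 and 286 CPM against 280 and 229 CPM (−0.30, SE 0.15) and the tumour necrosis factor receptor Tnfrsf1a at 233 and 296 CPM against 229 and 245 CPM (−0.20, SE 0.15). Of lysosomal proteases and cystatins, 0 of 14 were called (4 at an unadjusted p under 0.05, 2 of them higher). Cst3, an inhibitor of cysteine proteases, was at 877 and 1013 CPM against 874 and 1160 CPM (0.06, SE 0.16), and the lysosomal membrane protein Lamp1 at 749.8 and 881 CPM against 739 and 839 CPM (−0.09, SE 0.14).

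In the RGS family 0 of 9 were called (2 at an unadjusted p under 0.05, both higher). Rgs12 was at 224 and 184 CPM against 162 and 183 CPM (−0.28, SE 0.14) and Rgs3 at 79.1 and 70.5 CPM against 44.6 and 71.8 CPM (−0.43, SE 0.21). Of the CLCA, anoctamin and other chloride channel genes, 0 of 4 were called and 0 had an unadjusted p under 0.05, with Ano6 at 132 and 107 CPM against 104 and 106 CPM (−0.23, SE 0.14) and Clcn3 at 50.6 and 57.2 CPM against 52.9 and 50.9 CPM (−0.09, SE 0.14). Of protocadherins and other cadherins, 1 of 10 was called and 7 had an unadjusted p under 0.05, 4 of them higher. The called gene was Cdh1, the epithelial E-cadherin, with 2 and 1 UMIs (0.723 and 0.309 CPM) in WT and 33 and 10 UMIs (7.15 and 3.74 CPM) in ERG CKO ECs (3.38, SE 0.72, adjusted p = 0.0490, edgeR). Cdh1 passed the filter on low counts only through ERG CKO, so it could only be called higher. It was not called with doublets left out, at resolution 0.4 or without WT replicate 2. The 11 epithelial markers summed to 799 and 895 CPM in WT and 826 and 630 CPM in ERG CKO ECs, which overlapped. Of tubulins 0 of 11 were called, none with an unadjusted p under 0.05, among them Tuba1a (753 and 695 CPM against 805 and 854 CPM, 0.16, SE 0.13) and Tubb5 (420 and 452 CPM against 515 and 467 CPM, 0.14, SE 0.13).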

How the data were processed

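The authors deposited 1 matrix of raw UMI counts, 20076 genes by 9363 cells, from droplet single-cell RNA-seq processed, per the submitters' processing notes, with Cell Ranger 3.1.0 and mm10. The limits of their quality filter are not given in the sources used here, and all cells had at least 300 genes and 500 UMIs, so none was removed here. The study kept fewer cells after its own filter. Rows with the same symbol were summed (20063 symbols). No authors' cell annotation was used, so names were rebuilt here, which can itself cause differences from the published ones. Scrublet (scanpy 1.11.5) called 58 cells (0.619%) doublets, which were kept.

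Cells were clustered in Seurat (2000 variable genes without the 7 genes, their relatives, Erg and sex-linked genes, CCA alignment, 30 dimensions, resolution 0.8) and named from marker lists: a marker needed detection in 10% of cells and a log2 fold of 1 (10 CPM added), a name 3 markers. In 921 cells of low depth no name was given. ECs were clustered again (20 dimensions, resolution 0.6), also without the genes called in ECs, with and without alignment. EC clusters with 4 or more markers of another class stayed unnamed, a limit chosen after the data were seen. The 7 genes and all lists were chosen with earlier results of these data known. Named beside them are, in each list of relatives, the called genes or, with none called, the 2 of highest mean CPM, and for each gene the 3 genes of most similar profile.

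UMI counts were summed per library and class, with mice as replicates, and tested with edgeR (glmQLFit, glmQLFTest, TMM, filterByExpr; R 4.3.3) and called at 0.05 or less after Benjamini-Hochberg adjustment over all genes of a class. SE is the log2 fold change over the square root of F. On simulated ECs the test was checked against known folds. An exact permutation test of 2 against 2 cannot go below 0.333. Replicates of a group differed by more than sampling noise (chi-square per degree of freedom of 3.72 in WT and 6.88 in ERG CKO ECs). Replicate 1 of both groups held Xist UMIs and replicate 2 Ddx3y UMIs, so sex-linked expression was balanced. Alternatives were DESeq2, no filter on low counts, each library left out, a replicate block, no alignment, resolution 0.4, doublets out, cells over 10% mitochondrial UMIs out, thinning to 1000 UMIs and mixed cells out.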

Additional observations from a re-analysis of the deposited data

Results flagged for a closer look

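In 921 cells of low depth that were given no name and entered no comparison (WT 181 and 137 cells, ERG CKO 386 and 217 cells, median depths of 946 to 1011 UMIs per cell), 6 of the 7 genes were higher in both ERG CKO libraries than in both WT libraries, as were 18.9% of the 10791 genes tested in ECs. Slc12a2 stood at 15.8 and 18.6 CPM for WT, against 237 and 667 CPM for ERG CKO, a mean of 452 CPM in the latter. Pcdh17 had a mean of 494 CPM in ERG CKO (364 and 623 CPM, against 290.0 and 259.9 CPM in WT), Lgmn 236 CPM (139.7 and 333 CPM, against 63.3 and 111 CPM) and Tubb2b 93.1 CPM (60.7 and 125 CPM, against 26.4 and 0 CPM). Clca3a1 had a mean of 44.9 CPM (50.6 and 39.2 CPM, against 5.27 and 6.19 CPM, 1 UMI in each WT library) and Tnfrsf11b 28.7 CPM (18.2 and 39.2 CPM, against 5.27 and 12.4 CPM, from 3 UMIs in WT). Rgs10 overlapped between the groups. The clusters of these cells met 8 of 10 and 7 of 10 endothelial markers, and Erg was at 137 to 179 CPM in them. The contrast is therefore close to that of the selection, and nothing is read from the count. None of these differences was tested.

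In 2 classes outside ECs both ERG CKO values of Rgs10 lay below both WT values. The share of all genes for which this holds in these classes was not counted, so nothing is read from it. In dendritic cells the WT values were 345 and 378 CPM and the ERG CKO values 245 and 254 CPM, a difference of −112 CPM (adjusted p = 0.333, edgeR), and in alveolar macrophages at 35.1 and 35.7 CPM against 34.5 and 25.3 CPM, a difference of −5.50 CPM (adjusted p = 0.994). That these differences are unlike those in ECs was not tested.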

How the results depend on the processing

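The count of genes called in ECs (343) was 1092 with no filter on low counts and 190 after thinning to 1000 UMIs, and 8 to 636 when 1 library was left out (lowest without WT replicate 2, highest without ERG CKO replicate 2). It kept within 1.5 times in the other 6 alternatives without the block. With the replicate block it was 1173. Labels share numbers between the groups but do not say that they pair mice, and the differences between replicates correlated at 0.342 over 9640 genes between the groups, so the paired values are given here alone. Without sex-linked genes the correlation was 0.255 over 9634 genes. Replicate number goes with Xist or Ddx3y in both groups, so the block is also a block by sex-linked expression. Relatives called in ECs (1) were 11 with no filter and 11 with the replicate block, 3 without alignment, 0 at resolution 0.4 (edgeR) and 0 with doublets left out, and 0 to 10 with 1 library left out. Calls of the 7 genes outside ECs (3) were 0 with DESeq2, 0 after thinning, 7 with no filter, 0 with fibroblasts of 2 or more endothelial UMIs left out (an alternative chosen after the data were seen), 3 with the replicate block (Clca3a1 and Slc12a2 in fibroblasts and Lgmn in dendritic cells, and not Tnfrsf11b) and 1 to 7 with 1 library left out. The 24 pairs of gene and EC subtype that were apart by level were 14 by share of thinned cells. Of 91 values of the EC log2 fold change of the 7 genes under 13 alternatives, 0 changed sign, 78 moved by less than 1 SD between replicates, and the lowest was 0.31 (Pcdh17 after thinning). The other 13 moved by more, among them Tnfrsf11b after thinning (2.18 in place of 3.16) and Clca3a1 with mixed cells left out (3.60 in place of 2.80). Arteries and lymphatic ECs hold too few cells, and levels under 3 UMIs too few counts, to show a difference.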
